A study of Homo sapiens with 12 samples.

Results

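The genes described here are 37 genes of glycolysis and of the response to low oxygen, chosen as a list of gene symbols and read from a table of 60649 gene IDs. They fall into 17 glycolytic enzymes and regulators, 3 transporters of glucose and lactate, and 17 other genes that are targets or parts of the hypoxia-inducible factor (HIF) system. All 37 passed the filter on low reads, so none is missing from the counts below. The study measured total RNA by sequencing in 4 groups of 3 libraries of MDA-MB-231, a mesenchymal human breast cancer line that lacks hormone receptors. Control cells carried a sham-targeting hairpin RNA, SIRT1 KD cells a hairpin against SIRT1, IGF2BP2 KD cells a hairpin against IGF2BP2, and double KD cells both. SIRT1 is a deacetylase of histones and other proteins, and IGF2BP2 (also called IMP2) is a protein that binds messenger RNAs. All 4 groups received lentivirus, which had been packaged in HEK-293T (human embryonic kidney) cells. Polybrene (8 µg per mL) was used in all groups, and all grew under puromycin (2.0 µg per mL) in RPMI-1640 with 10% serum. The labels name no exposure to low oxygen, and do not say how many hairpins or infected populations stand for a group. The series text gives 3 independent runs for each condition, and no source used here says whether a run is a separate infection, so p-values measure the spread between runs.

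Glycolysis turns glucose into pyruvate, and lactate dehydrogenase turns pyruvate into lactate, which leaves the cell through a monocarboxylate transporter. HIF is a pair of proteins whose alpha subunit, such as the product of HIF1A, is hydroxylated and degraded when oxygen is present. When it is stable it binds DNA at a core sequence ACGTG or GCGTG and raises genes of glycolysis, of vessel growth and of pH control. Many tumour cells keep a high flow through glycolysis also when oxygen is present.

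The short sequences below are shown because they hold ACGTG, the core letters that HIF binds. The palindrome CACGTG, as in LDHA and BNIP3, is also bound by other factors such as MYC and USF. They are windows of RefSeq promoters (build GRCh38.p14, from upstream to just past a gene's start), read along the gene's strand, with the core in capitals as ACGTG or, where it lies on the opposite strand, as CACGT. All 6 genes were lower in both SIRT1 KD and double KD cells than in control cells.
CA9, chr9:35673898-35673926, plus strand: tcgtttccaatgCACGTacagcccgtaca
LDHA, chr11:18394464-18394492, plus strand: cagcccgactcaCACGTgggttcccgcac
PGK1, chrX:78104034-78104062, plus strand: gcggcgtgccggACGTGacaaacggaagc
BNIP3, chr10:131982040-131982068, minus strand: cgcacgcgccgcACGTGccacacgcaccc
P4HA1, chr10:73096936-73096964, minus strand: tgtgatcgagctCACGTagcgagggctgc
ALDOC, chr17:28576907-28576935, minus strand: ccccggaggagtCACGTagctctgcgaca

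Counted from the start used by the RefSeq promoters, the match begins 18 bases upstream in CA9, 86 in P4HA1 and 202 in PGK1. The GENCODE spans of these genes begin farther upstream, at 35673856 for CA9, 73096974 for P4HA1 (minus strand) and 77910739 for PGK1. By the GENCODE spans the matches shown for CA9, P4HA1, PGK1, LDHA and ALDOC lie inside the gene. The distances given thus hold for the RefSeq starts only. ACGTG was searched on both strands, so the palindrome CACGTG counts once on each, and a match of GCGTG can overlap one of ACGTG by 1 base. Of the 33 genes with a promoter in the table, 21 hold ACGTG, which is 63.6%, against 24.9% of 27305 genes. By promoter the shares were 43.9% of 57 and 21.4% of 35116. ACGTG was found for 12 of 17 glycolytic enzymes, 1 of 2 transporters and 8 of 14 other HIF genes. VEGFA, SLC2A3, BNIP3L and NDRG1 were not matched. GCGTG was found in 42.1% of the promoters of these genes and in 36.5% of all promoters. A match is a description of letters and not a bound site.

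Genes with ACGTG and genes without it both included some that fell. Genes without ACGTG can hold GCGTG, the other core, and were not split by it. In SIRT1 KD cells 10 of the 21 genes with ACGTG and 4 of the 12 without it were lower, with median log2 changes of -0.10 and -0.08. In double KD cells 8 of 21 and 6 of 12 were lower, with medians of -0.07 and -0.25. Without double KD replicate 2, a library described in the next paragraph, the lower genes numbered 10 with ACGTG and 5 without it in SIRT1 KD cells. In double KD cells they were 10 and 9. Of all genes tested, 15.7% were lower in SIRT1 KD and 17.5% in double KD cells, or 20.9% and 20.6% without that library. GAPDH, HK2 and ANKRD37 hold ACGTG and were not lower in SIRT1 KD cells, while CA12, EGLN3 and HIF1A were lower and hold no ACGTG in their promoters. CA12 and HIF1A hold GCGTG there, and EGLN3 holds neither.

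The libraries held 19522606 to 22509142 reads in 11 cases and 15243152 in double KD replicate 2, which also stood apart in its share of mitochondrial reads (1.18% against 1.99% to 2.57%) and in its distance from its own group (an SD of 0.438 against 0.233 to 0.342 on the log2 scale). Most counts of called genes, and some of the values that change with it, are therefore also given without it. A value printed without a second figure can also change. SIRT1 was at 63.2% of its control level in SIRT1 KD cells and at 48.4% in double KD cells, and IGF2BP2 at 24.8% in IGF2BP2 KD and 28.1% in double KD cells. IGF2BP2 was higher in SIRT1 KD cells than in control (3757 ± 35.4 against 3075 ± 44.5 normalised counts, SD, n = 3). The mesenchymal markers of the line were abundant (VIM 17403 to 28125, AXL 43553 to 59216), and PGR and ESR1 did not exceed 0.964 and 7.66. ERBB2, also listed as low in the line, had 2038 to 2550. The 7 luminal epithelial markers summed to 22643 to 34140, mostly from the keratins KRT8 (9946 to 14088), KRT18 and KRT19. Of the same list, CDH1 and FOXA1 did not exceed 24.1 and 4.79. Immune markers summed to at most 13.4 in any library. The 6 fibroblast markers summed to 289 to 301 in control libraries, 330 to 386 with SIRT1 knockdown, 313 to 340 with IGF2BP2 knockdown and 567 to 1017 with both. COL1A1 made up most of this sum, DCN and PDGFRA had a median of 0, and the part of this difference in the results on double KD cells was not tested.

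Glycolytic enzymes were the most abundant of these transcripts in control cells when counts were divided by exon length. ENO1 (enolase) had 10937 normalised counts per kb and GAPDH 9959, followed by PKM at 4940, LDHA at 3853, TPI1 at 2985 and PGK1 at 2783. HIF1A followed at 2387 and the glucose transporter SLC2A1 (GLUT1) at 2358 per kb. The lowest were ANGPTL4 at 11.9, the HIF prolyl hydroxylase EGLN3 at 21.8, ANKRD37 at 27.2 and the carbonic anhydrase CA9 at 51.6 per kb. Among enzymes that share a step, PFKP (1955 per kb) stood above PFKL (504) and PFKM (212), and ENO1 stood far above ENO2 (502). Exon length covers all annotated isoforms, which lowers the value of genes with long or many isoforms such as PDK1.

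**Figure D1:**
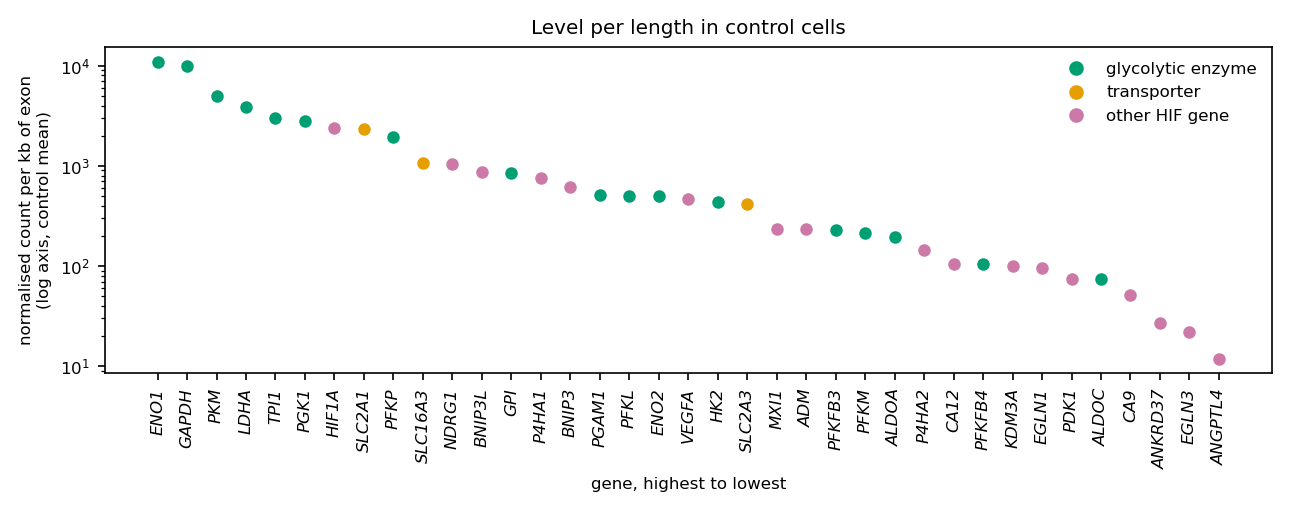
Mean normalised count per kb of exon in the 3 control libraries (log axis) for each of the 37 genes, ordered from highest to lowest and coloured by role. Glycolytic enzymes take the first 6 places, from ENO1 at 10937 to PGK1 at 2783, and ANGPTL4 is lowest at 11.9.

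SIRT1 knockdown against control asks which genes change with the hairpin against SIRT1. In these cells 16 of the 37 genes fell and 4 rose, where 15.7% of all 17576 genes tested were lower and 12.9% higher (limma, Benjamini-Hochberg adjusted p under 0.05 over all genes). Without double KD replicate 2, which enters this comparison only through the shared estimate of spread, 17 fell and 7 rose, where the shares of all genes were 20.9% and 18.9%. The falls were deeper among other HIF genes, where CA9 was at 33.6%, EGLN3 at 44.5% and CA12 at 47.5% of control, than among glycolytic enzymes, where the lowest was PFKM at 70.6%. Of the 17 glycolytic enzymes 6 fell and 1 rose, with a median log2 change of -0.08. Of the 17 other HIF genes 9 fell and 3 rose, with a median of -0.25. The median over all genes tested was -0.00, and the difference between the lists was not tested.

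IGF2BP2 knockdown against control asks the same of the hairpin against IGF2BP2, and the genes moved in both directions. Here 6 of the 37 genes fell and 5 rose, against 9.39% and 6.86% of all genes. The 6 that fell were HK2, SLC2A3, VEGFA, P4HA1, NDRG1 and ADM, and the 5 that rose were GPI, ALDOC, CA12, BNIP3 and KDM3A. Without double KD replicate 2, 17 rose and 6 fell, where 13% of all genes were higher and 15.7% lower. Of the glycolytic enzymes 1 fell and 2 rose (median 0.08), and 8 rose without that library. Of the other HIF genes 4 fell and 3 rose (median 0.18), and 9 rose without it.

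In double KD cells 18 of the 37 genes were lower than in control and 2 were higher, against 17.5% and 16.7% of all genes. Without double KD replicate 2, 23 were lower and 2 higher, with 20.6% and 19.6% of all genes. Glycolytic enzymes gave 6 lower and 1 higher, with a median of -0.15, and 10 lower without that library. Other HIF genes gave 10 lower and 1 higher, with a median of -0.33, and 11 lower without it. Of the 3 transporters SLC2A1 and SLC2A3 were lower.

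**Figure D2:**
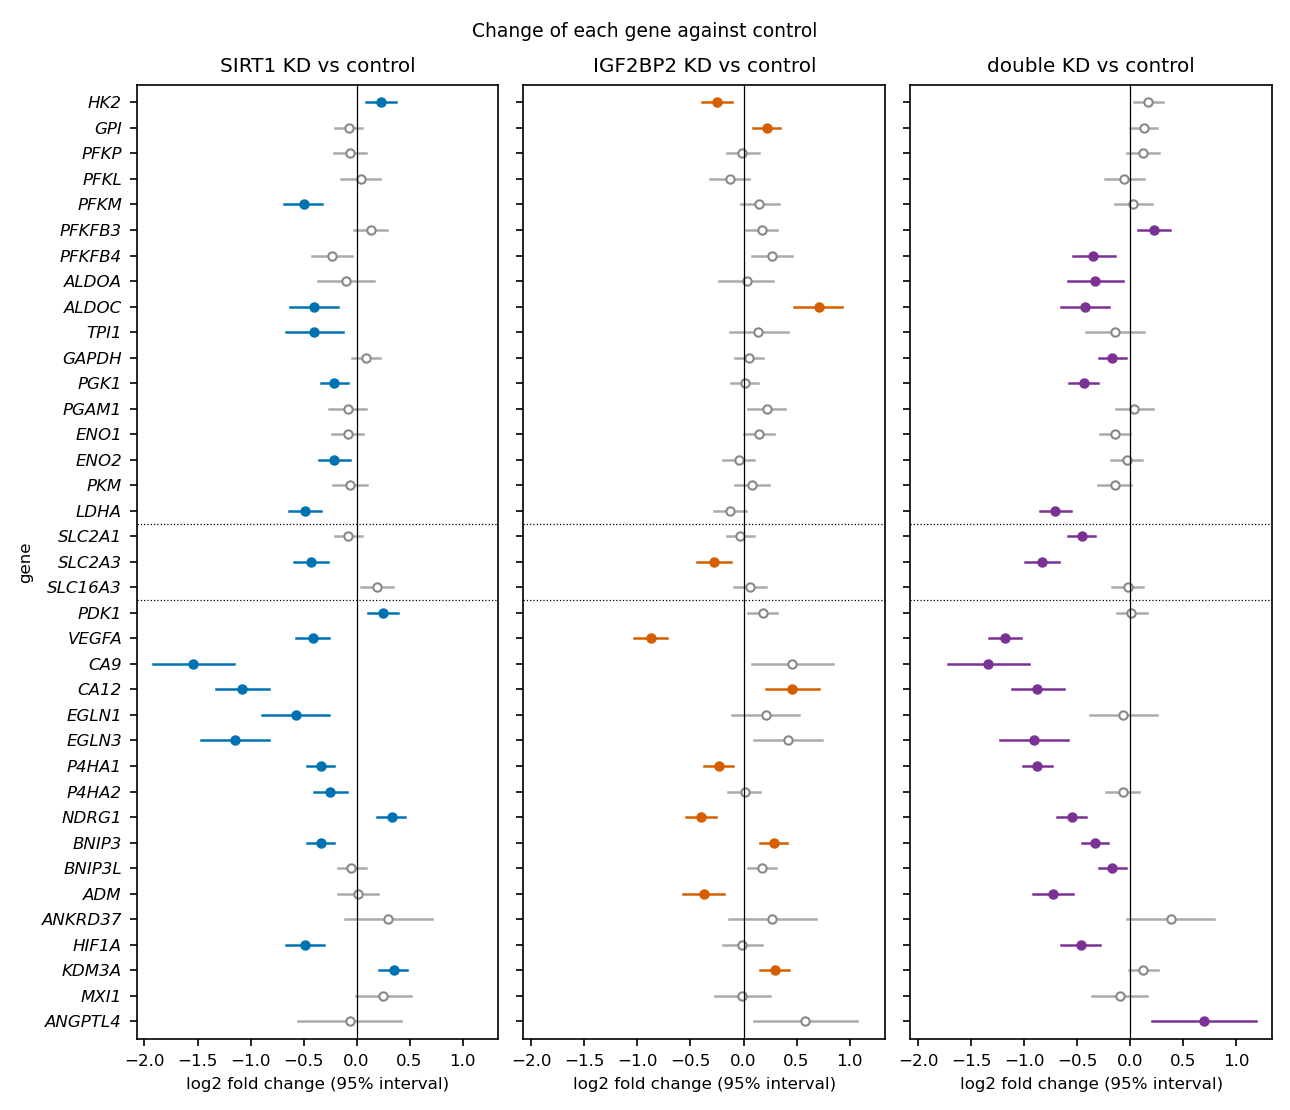
Log2 fold change against control with its 95% interval (x axis) for each gene (y axis) in SIRT1 KD, IGF2BP2 KD and double KD cells, with filled points for an adjusted p under 0.05 in limma and open grey points for the rest. Dotted lines part glycolytic enzymes, transporters and other HIF genes, and CA9, at -1.54 in SIRT1 KD and -1.34 in double KD cells, lies farthest to the left.

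The mean over the 17 other HIF genes of log2(normalised count + 1), relative to the control mean, was -0.27, -0.35 and -0.23 in the 3 SIRT1 KD libraries and -0.46, -0.30 and -0.37 in the 3 double KD libraries. It was 0.03, 0.11 and 0.11 in IGF2BP2 KD libraries. The same mean over the 17 glycolytic enzymes was -0.11, -0.20 and -0.12 in SIRT1 KD, 0.08, 0.09 and 0.11 in IGF2BP2 KD, and -0.26, -0.00 and -0.14 in double KD libraries. The SIRT1 KD libraries lay below all control libraries for both lists. The double KD libraries did so for the other HIF genes, while for the glycolytic enzymes double KD replicate 2 lay among the control libraries. Medians over the other HIF genes were -0.17, -0.36 and -0.21 in SIRT1 KD libraries. There 11, 12 and 9 of 17 genes lay below the control mean. For glycolytic enzymes the medians were -0.03, -0.15 and -0.07, with 13, 15 and 13 of 17 below it. The deep falls of CA9, EGLN3 and CA12 weigh on the mean of the other HIF genes.

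**Figure D3:**
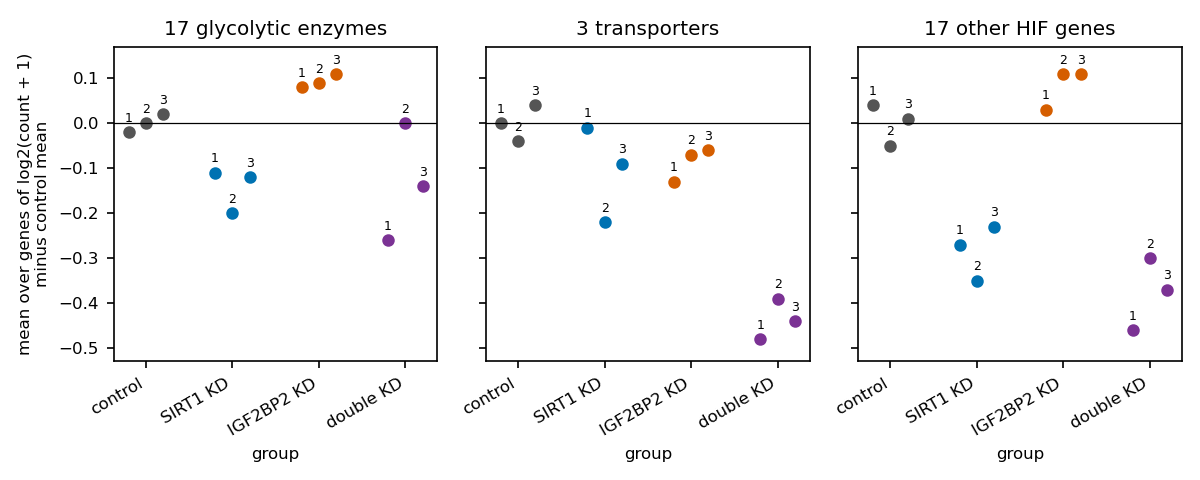
Mean over the genes of a role of log2(normalised count + 1) minus the control mean (y axis), with 1 point per library and its replicate number, by group (x axis). Other HIF genes lie at -0.23 to -0.46 in the SIRT1 KD and double KD libraries, and glycolytic enzymes at -0.00 to -0.26. The deep falls of CA9, EGLN3 and CA12 weigh on the means of the other HIF genes.

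In early glycolysis only HK2 was called in opposite directions in the single knockdowns, in the fit of all libraries. Changes were small for HK2 and GPI and larger for PFKM. HK2 (hexokinase, which traps glucose in the cell) rose in SIRT1 KD cells by 0.23 on the log2 scale (SE 0.0662, adjusted p = 0.0131) and fell in IGF2BP2 KD cells by 0.25 (SE 0.0662, adjusted p = 0.0126). Each of these HK2 calls was lost in 2 of 20 other settings. GPI (glucose phosphate isomerase) was higher in IGF2BP2 KD cells, by 0.22 (adjusted p = 0.0159, lost in 4 settings). The phosphofructokinases carry out the committed step, and only the muscle form was called.
PFKM had 1515, 1573 and 1564 normalised counts in the 3 control libraries, 1085, 1059 and 1140 in SIRT1 KD, 1663, 1765 and 1740 in IGF2BP2 KD, and 1438, 1864 and 1459 in double KD libraries. The SIRT1 KD libraries lay below all others, and double KD replicate 2 lay above all others. Its log2 change was -0.50 in SIRT1 KD cells (SE 0.0837, adjusted p = 1.7e-04) and 0.02 under double KD (adjusted p = 0.866), and double KD cells stood above SIRT1 KD cells by 0.53 (adjusted p = 1.7e-04), or by 0.40 without double KD replicate 2 (adjusted p = 9.8e-07). PFKP and PFKL passed the threshold in none of the 6 comparisons, with log2 changes from -0.13 to 0.12 against control. Without double KD replicate 2, PFKL was lower in double KD cells by 0.19 (adjusted p = 0.00676).
Of the enzymes that set fructose 2,6-bisphosphate, an activator of phosphofructokinase, PFKFB4 fell in double KD cells by 0.35 (adjusted p = 0.00641). PFKFB3 rose there by 0.22 (adjusted p = 0.0235), and without double KD replicate 2 this was 0.14 with an adjusted p of 0.0603.

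In the middle of the pathway aldolase C moved most. ALDOC had 227, 225 and 195 normalised counts in control, 169, 150 and 169 in SIRT1 KD, 316, 367 and 376 in IGF2BP2 KD, and 148, 165 and 168 in double KD libraries. ALDOC may share reads with AC005726.1, which overlaps it on the same strand in GENCODE 29. IGF2BP2 KD libraries were above all control libraries, and both groups with the SIRT1 hairpin were below them. The log2 changes were -0.40 (SE 0.107, adjusted p = 0.00836), 0.71 (adjusted p = 1.5e-04) and -0.43 (adjusted p = 0.00463), and that of double KD against IGF2BP2 KD cells was -1.13 (adjusted p = 3.4e-07). ALDOA, the major aldolase of most tissues, was called lower in double KD cells at -0.33 (adjusted p = 0.0443), a call lost in 13 of 20 other settings. This change was -0.53 without double KD replicate 2 (adjusted p = 1.2e-07). Its level of 195 per kb in control is uncertain, since AC093512.2 overlaps it on the same strand in GENCODE 29 and may share its reads.
TPI1 (triosephosphate isomerase) had 7918, 8172 and 8087 normalised counts in control, 6294, 5792 and 6211 in SIRT1 KD, 8895, 8998 and 8809 in IGF2BP2 KD, and 5853, 9819 and 6734 in double KD libraries. SIRT1 KD libraries lay below control, and the double KD libraries lay on both sides of it. The change was -0.40 in SIRT1 KD cells (SE 0.127, adjusted p = 0.0271, lost in 6 settings) and -0.15 under double KD (adjusted p = 0.422), or -0.36 without double KD replicate 2 (adjusted p = 3.2e-06).

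GAPDH, often used as a reference gene, lies at chr12:6533927-6538374 on the plus strand (GENCODE 29, GRCh38). It had 29268, 28973 and 30819 normalised counts in control, 32505, 29549 and 32699 in SIRT1 KD, 30787, 29836 and 31573 in IGF2BP2 KD, and 24783, 26594 and 27603 in double KD libraries. The 3 double KD libraries lay below the other 9. The change against control was -0.17 in double KD cells (SE 0.0615, adjusted p = 0.0353, lost in 6 settings), 0.09 in SIRT1 KD cells (adjusted p = 0.319) and 0.05 in IGF2BP2 KD cells (adjusted p = 0.654). GAPDH has 62 named pseudogenes in the annotation, with which it may share reads.
PGK1 (phosphoglycerate kinase), the next enzyme, had 15048, 15167 and 15804 normalised counts in control, 13652, 12587 and 13485 in SIRT1 KD, 15628, 14939 and 15738 in IGF2BP2 KD, and 10368, 11673 and 11829 in double KD libraries. Its double KD libraries were the lowest, its SIRT1 KD libraries came next, and control and IGF2BP2 KD libraries overlapped. PGK1 fell by 0.21 in SIRT1 KD cells (SE 0.0627, adjusted p = 0.0157, lost in 2 settings) and by 0.44 in double KD cells (adjusted p = 2.2e-05).
The last steps before pyruvate, carried out by PGAM1, ENO1 and PKM, were called in no comparison with control, with log2 changes from -0.15 to 0.22. ENO1 and PKM were lower in double KD than in IGF2BP2 KD cells (-0.30, adjusted p = 0.00268, and -0.23, adjusted p = 0.0266, lost in 7 settings for PKM). Without double KD replicate 2 they were also below control in double KD cells (-0.21, adjusted p = 0.00466, and -0.25, adjusted p = 6.3e-04). In the same fit PGAM1 and ENO1 rose in IGF2BP2 KD cells (0.22, adjusted p = 0.00418, and 0.15, adjusted p = 0.0347). ENO2, the neuronal enolase, was lower in SIRT1 KD cells at -0.21 (adjusted p = 0.0299, lost in 7 settings).

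LDHA, the lactate dehydrogenase subunit that closes the pathway, lies at chr11:18394388-18408425 on the plus strand. It had 22997, 24209 and 24568 normalised counts in control, 17312, 16049 and 17748 in SIRT1 KD, 23469, 19594 and 22795 in IGF2BP2 KD, and 14107, 14378 and 15565 in double KD libraries. The groups with the SIRT1 hairpin did not overlap control or IGF2BP2 KD, which overlapped each other. Among glycolytic enzymes LDHA had the largest fall in double KD cells, to 61.4% of control (log2 change -0.71, SE 0.0711, adjusted p = 4.2e-07), after -0.49 in SIRT1 KD (adjusted p = 4.0e-05) and -0.13 in IGF2BP2 KD cells (adjusted p = 0.252). Double KD cells were below SIRT1 KD cells at -0.21 (adjusted p = 0.0371), a call lost in 8 settings.

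Both glucose transporters were lowest in double KD cells. SLC2A1 had 10848, 10953 and 11618 normalised counts in control, 11042, 9791 and 10916 in SIRT1 KD, 10787, 11076 and 10771 in IGF2BP2 KD, and 7796, 8338 and 8195 in double KD libraries. The 3 double KD libraries lay below the other 9, which overlapped. SLC2A1 was at 72.8% of control in double KD cells (log2 change -0.46, SE 0.0612, adjusted p = 1.2e-05) and at 95% and 97.6% in the single knockdowns (adjusted p = 0.402 and 0.779).
SLC2A3 (GLUT3), a high-affinity glucose transporter, had 2640, 2391 and 2651 normalised counts in control, 2109, 1736 and 1870 in SIRT1 KD, 2045, 2050 and 2225 in IGF2BP2 KD, and 1438, 1382 and 1491 in double KD libraries. Each knockdown lay below control, and double KD lay below each single knockdown. The log2 changes were -0.43, -0.28 and -0.83 (SE 0.0754 for each, adjusted p = 2.8e-04, 0.0152 and 1.1e-07). The call in IGF2BP2 KD cells was lost in 4 settings. SLC16A3 (MCT4), which exports lactate, was called in no comparison with control and its change from SIRT1 KD to double KD was -0.21 (adjusted p = 0.0396, lost in 9 settings). With double KD replicate 2 left out it was higher in SIRT1 KD cells than in control, by 0.19 (adjusted p = 0.00441).

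**Figure D4:**
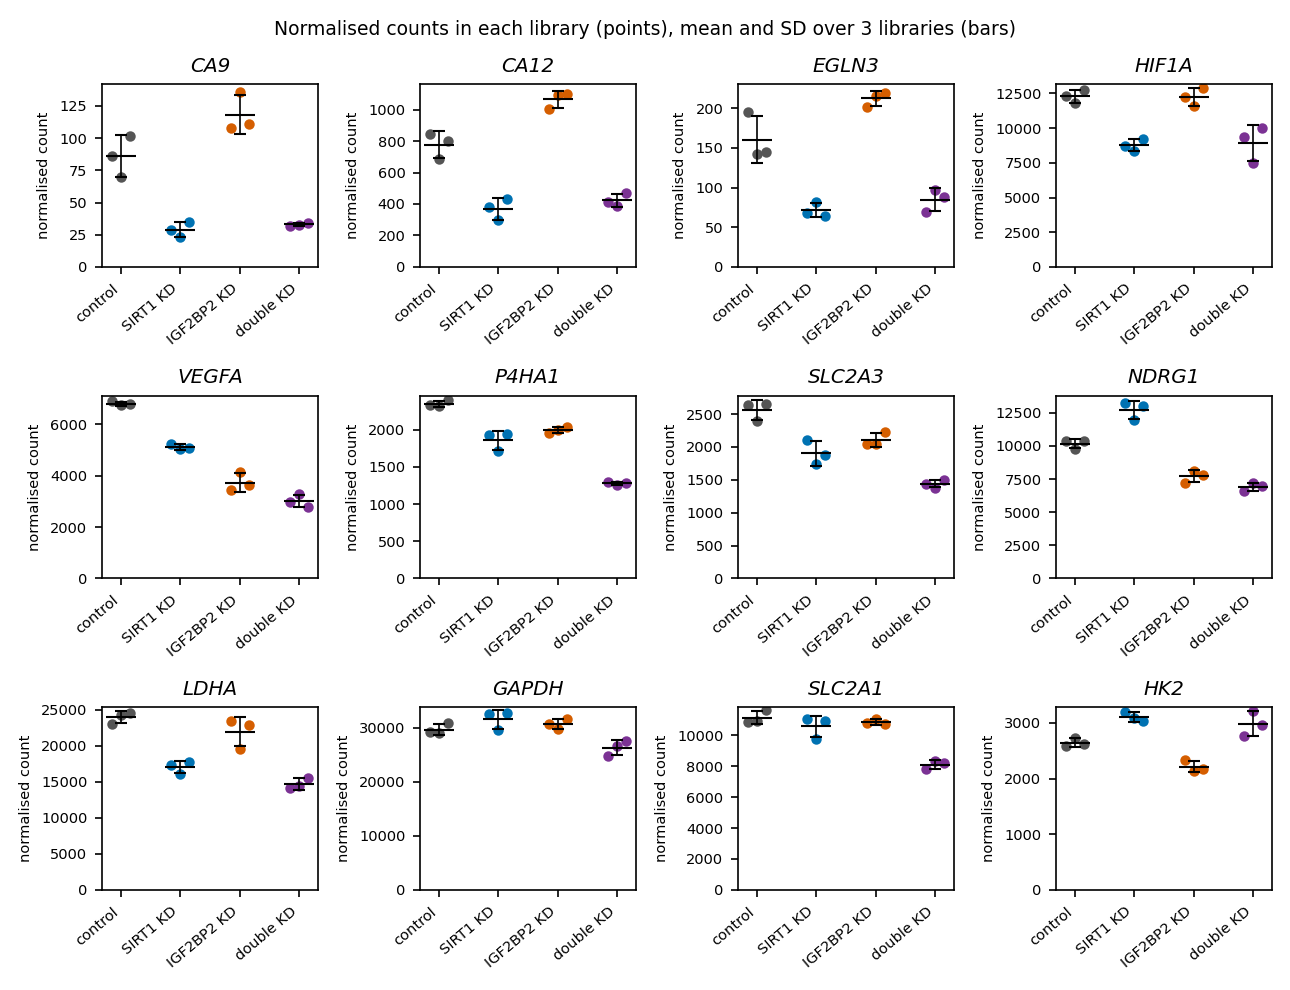
Normalised counts (y axis, from 0) in each library of the 4 groups (x axis) for 12 genes, as points, with bars for the mean and SD of 3 libraries. CA9, CA12 and EGLN3 are low in both groups with the SIRT1 hairpin, NDRG1 is high in SIRT1 KD cells only (13236, 11964 and 13034), and SLC2A1 is low in double KD cells only (7796, 8338 and 8195).

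HIF1A, which encodes the oxygen-regulated HIF-1 alpha subunit, lies at chr14:61695513-61748259 on the plus strand. It had 12333, 11819 and 12736 normalised counts in control, 8726, 8344 and 9248 in SIRT1 KD, 12228, 11612 and 12878 in IGF2BP2 KD, and 9377, 7498 and 9995 in double KD libraries. The groups with the SIRT1 hairpin lay below the others, and control and IGF2BP2 KD libraries overlapped. Its log2 change was -0.49 in SIRT1 KD cells (SE 0.0852, adjusted p = 2.7e-04), -0.47 in double KD cells (adjusted p = 3.2e-04; -0.34 without replicate 2) and -0.01 in IGF2BP2 KD cells (adjusted p = 0.968). The antisense genes HIF1A-AS1 and HIF1A-AS2 overlap it, and their reads cannot be told apart where the strand setting of the counting is not known. These are transcript levels, and HIF-1 alpha is controlled mainly as a protein.

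The HIF prolyl hydroxylases mark HIF alpha for degradation, and EGLN3 is itself a HIF target. EGLN3 had 195, 142 and 145 normalised counts in control, 68.5, 81.7 and 64.2 in SIRT1 KD, 202, 216 and 220 in IGF2BP2 KD, and 69.4, 97.4 and 87.6 in double KD libraries. All 6 libraries with the SIRT1 hairpin were below all 6 without it. The log2 changes were -1.15 in SIRT1 KD (SE 0.152, adjusted p = 1.5e-05), -0.91 in double KD (adjusted p = 1.3e-04) and 0.42 in IGF2BP2 KD cells (adjusted p = 0.071, and 0.0123 without double KD replicate 2).
EGLN1 (PHD2), the main oxygen sensor of this family, had 721, 750 and 629 normalised counts in control, 481, 435 and 492 in SIRT1 KD, 760, 855 and 806 in IGF2BP2 KD, and 530, 922 and 605 in double KD libraries. SIRT1 KD libraries were the lowest, and double KD replicate 2 was the highest of all 12. EGLN1 fell in SIRT1 KD cells by 0.57 (SE 0.148, adjusted p = 0.00791). In double KD cells the change was -0.07 (adjusted p = 0.775), or -0.30 without replicate 2 (adjusted p = 0.00236).

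The carbonic anhydrases CA9 and CA12 sit on the cell surface and help to export acid, and CA9 is a widely used marker of HIF activity. CA9 (chr9:35673856-35681159, plus strand) had 86.2, 70 and 102 normalised counts in control, 28.8, 23.2 and 34.7 in SIRT1 KD, 108, 136 and 111 in IGF2BP2 KD, and 32, 32.9 and 34 in double KD libraries. The 6 libraries with the SIRT1 hairpin lay below the 6 without it, and the IGF2BP2 KD libraries were the highest. The log2 changes were -1.54 in SIRT1 KD (SE 0.181, adjusted p = 3.6e-06), -1.34 in double KD (adjusted p = 1.3e-05) and 0.46 in IGF2BP2 KD cells (adjusted p = 0.0938, and 0.0393 without double KD replicate 2). CA9 is overlapped on the opposite strand by ARHGEF39.
CA12 (chr15:63321378-63382161, minus strand) had 848, 685 and 801 normalised counts in control, 379, 297 and 433 in SIRT1 KD, 1004, 1092 and 1100 in IGF2BP2 KD, and 413, 388 and 469 in double KD libraries. Its order was the same as that of CA9, with no overlap between IGF2BP2 KD and control. Its log2 changes were -1.08 in SIRT1 KD (SE 0.118, adjusted p = 1.7e-06) and -0.88 under double KD (adjusted p = 1.5e-05). It rose by 0.46 in IGF2BP2 KD cells (adjusted p = 0.0123, lost in 2 settings). Between double KD and SIRT1 KD cells CA9 and CA12 differed by 0.20 (95% interval -0.18 to 0.58, adjusted p = 0.475) and 0.21 (-0.04 to 0.46, adjusted p = 0.232).

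VEGFA, the growth factor of blood vessels, fell in every knockdown. VEGFA (chr6:43770184-43786487, plus strand) had 6896, 6746 and 6786 normalised counts in control, 5240, 5038 and 5076 in SIRT1 KD, 3426, 4127 and 3633 in IGF2BP2 KD, and 2977, 3269 and 2782 in double KD libraries. The 4 groups did not overlap. It was at 75.2%, 54.8% and 44.2% of control, with log2 changes of -0.41 (SE 0.0728, adjusted p = 3.0e-04), -0.87 (adjusted p = 2.0e-07) and -1.18 (adjusted p = 8.3e-10).
ADM, the vasodilator peptide adrenomedullin, had 641, 618 and 633 normalised counts in control, 662, 595 and 647 in SIRT1 KD, 509, 477 and 473 in IGF2BP2 KD, and 332, 438 and 376 in double KD libraries. Control and SIRT1 KD overlapped, and the other two groups lay below them. The changes were 0.01 in SIRT1 KD (adjusted p = 0.958), -0.37 in IGF2BP2 KD (SE 0.0918, adjusted p = 0.00842) and -0.73 under double KD (adjusted p = 5.8e-06).
ANGPTL4, an inhibitor of lipoprotein lipase, had low counts, with 33.5, 26.1 and 28.9 in control and 40.9, 67.3 and 40.2 in double KD libraries. SIRT1 KD libraries had 27.8, 26.9 and 29.5 and IGF2BP2 KD libraries 32.1, 56.3 and 48.9. Double KD libraries lay above control, with a change of 0.69 (SE 0.232, adjusted p = 0.0276), and without double KD replicate 2, the highest of all 12, the change was 0.45 with an adjusted p of 0.125.

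The collagen prolyl hydroxylase subunit P4HA1 fell stepwise. P4HA1 had 2327, 2315 and 2397 normalised counts in control, 1924, 1709 and 1938 in SIRT1 KD, 1956, 2002 and 2037 in IGF2BP2 KD, and 1291, 1259 and 1287 in double KD libraries. Each knockdown was below control, and the 3 double KD libraries agreed to within 17.6 counts (SD). The log2 changes were -0.34 (SE 0.0635, adjusted p = 5.0e-04), -0.23 (adjusted p = 0.0173, lost in 4 settings) and -0.88 (adjusted p = 6.5e-09). Its relative P4HA2 fell in SIRT1 KD cells by 0.25 (adjusted p = 0.0165, lost in 3 settings) and was not called in the other groups against control.
NDRG1, a stress-responsive gene that HIF induces, moved in opposite directions under the single knockdowns. NDRG1 had 10347, 9754 and 10402 normalised counts in control, 13236, 11964 and 13034 in SIRT1 KD, 7207, 8092 and 7842 in IGF2BP2 KD, and 6595, 7196 and 7005 in double KD libraries. SIRT1 KD libraries lay above all others, and IGF2BP2 KD and double KD libraries below control. The log2 changes were 0.33 (SE 0.0646, adjusted p = 8.4e-04), -0.40 (adjusted p = 2.7e-04) and -0.55 (adjusted p = 2.4e-06).
BNIP3, a receptor for the removal of mitochondria, fell in SIRT1 KD (-0.34, adjusted p = 3.2e-04) and double KD cells (-0.33, adjusted p = 3.1e-04) and rose in IGF2BP2 KD cells (0.29, adjusted p = 0.00301), and may share reads with its 39 named pseudogenes. Its relative BNIP3L was called lower in double KD cells (-0.17, adjusted p = 0.0426, lost in 9 settings), and higher in IGF2BP2 KD cells when double KD replicate 2 was left out (0.17, adjusted p = 0.0119). PDK1, the kinase that holds pyruvate out of the mitochondrial cycle, rose in SIRT1 KD cells by 0.25 (adjusted p = 0.00903). KDM3A, a histone demethylase, rose in both single knockdowns, by 0.35 (adjusted p = 4.1e-04) and 0.30 (adjusted p = 0.00316). ANKRD37 and MXI1 passed the threshold in none of the 6 comparisons, and without double KD replicate 2 MXI1 was higher in SIRT1 KD cells by 0.25 (adjusted p = 7.4e-04).

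**Figure D5:**
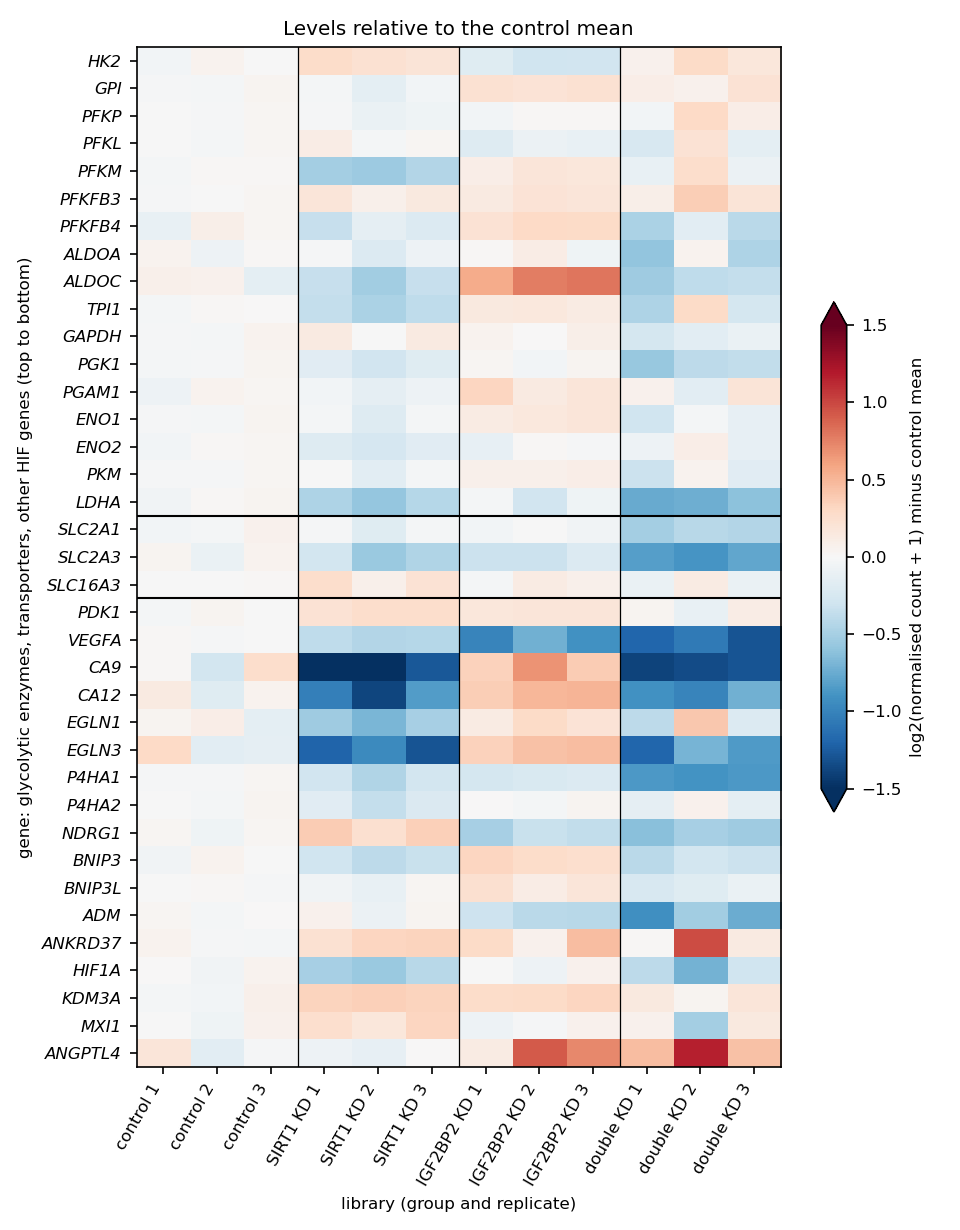
Log2(normalised count + 1) minus the control mean (colour, red above and blue below, ends of the scale at or beyond 1.5) for each gene (rows, in role order) in each of the 12 libraries (columns). Double KD replicate 2 stands apart from its partners at TPI1 (9819 against 5853 and 6734 normalised counts) and EGLN1 (922 against 530 and 605).

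The hairpin against SIRT1 can be read in 2 backgrounds that share no library, SIRT1 KD against control and double KD against IGF2BP2 KD. In the second, 20 of the 37 genes were lower and 1 higher, against 15.2% and 16.4% of all genes, and without double KD replicate 2 the counts were 24 and 1, where the shares of all genes were 17.8% and 19.0%. The genes lower in both were ALDOC, PGK1, LDHA, SLC2A3, VEGFA, CA9, CA12, EGLN3, P4HA1, BNIP3 and HIF1A, 11 genes that make up 68.8% of the first list and 55% of the second. Over all genes tested, the 1674 lower in both made up 60.7% and 62.8% of the corresponding lists. In the fit of all libraries the overlap of these genes thus lay near that of all genes. Without double KD replicate 2, PFKFB4, TPI1, PFKM and EGLN1 were also lower in both, and the overlap over all genes was not counted for that fit. In the fit of all libraries HK2 was the 1 gene higher in both, 25% of the first list of higher genes and 100% of the second. Over all genes the shares were 66.4% and 52.3%. In the second background the log2 changes were -1.80 for CA9 (SE 0.181, adjusted p = 7.0e-07), -1.33 for both CA12 and EGLN3 (adjusted p = 1.9e-07 and 3.1e-06), -0.58 for LDHA (adjusted p = 7.0e-06) and -0.46 for HIF1A (adjusted p = 4.3e-04). HK2 rose there by 0.43 (adjusted p = 7.5e-05).

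The hairpin against IGF2BP2 can likewise be read in IGF2BP2 KD against control and in double KD against SIRT1 KD. In the second, 12 of the 37 genes were lower and 4 higher, against 10.7% and 11.9% of all genes, and 16 and 4 without double KD replicate 2, where the shares were 14% and 15.3%. SIRT1 itself was lower in double KD cells than with its hairpin alone, by 0.38 (SE 0.0787, adjusted p = 0.00157), so this comparison and the interaction also carry that difference, and its part in them was not tested. SLC2A3, VEGFA, P4HA1, NDRG1 and ADM were lower in both, which is 83.3% of the 6 and 41.7% of the 12 genes. Over all genes, those lower in both made up 56.1% and 49.1% of the lists. GPI was the 1 gene higher in both, 20% and 25% of the lists of higher genes, against 51.1% and 29.4% over all genes. In double KD against SIRT1 KD cells NDRG1 changed by -0.88 (SE 0.0646, adjusted p = 3.2e-08), VEGFA by -0.77 (adjusted p = 6.3e-07), ADM by -0.74 (adjusted p = 1.3e-05), P4HA1 by -0.54 (adjusted p = 7.9e-06) and SLC2A3 by -0.40 (adjusted p = 7.6e-04). All 3 transporters were lower in this comparison, SLC2A1 by 0.38 (adjusted p = 1.8e-04).
The difference between both effects of the IGF2BP2 hairpin, the interaction, was negative and past the threshold for 5 genes (ALDOC, SLC2A1, PDK1, NDRG1 and KDM3A), against 1.16% of all genes, and positive for none, against 1.70%. At an unadjusted p under 0.05 the counts were 14 negative and 3 positive, where 7.53% of all genes were negative and 10.6% positive. edgeR gave 7 and 0 (1.44% and 1.88% of all genes), DESeq2 9 and 0 (2.24% and 3.03%), and limma without double KD replicate 2 gave 16 and 1 (4.02% and 6.06%). In 8 of the 12 fits that left out 1 library, 2 or 3 of the 37 genes were called. SLC2A1 is an example, with single knockdown changes that add to -0.11 and a double KD change of -0.46.

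A pair of 7-base words, CTCAGAT and TCAGATA, was searched in the 3′ UTRs of these genes because genes that hold them were lower in the SIRT1 KD libraries of these same data, so their link with that comparison is not independent. They occur in 6 of the 37 genes (CA12, EGLN3, EGLN1, PFKL, PDK1 and BNIP3L), against 17.9% of 13038 genes searched on the transcript strand. The sites of the 3 genes that fell, of which EGLN1 has a pair, are shown with the matched letters in capitals, along the gene's strand in GENCODE 29 (GRCh38), with the coordinates of the capitals.
CA12, chr15:63323225-63323231, minus strand, exon 11 of 11: aacaaatagCTCAGATttgaacaga
EGLN3, chr14:33925703-33925709, minus strand, exon 5 of 5: tgttgatctTCAGATActctctttg
EGLN1, chr1:231365098-231365105, minus strand, exon 5 of 5: cagtaactcCTCAGATAtctgttaag
EGLN1, chr1:231365002-231365008, minus strand, exon 5 of 5: gatgcaaaaTCAGATAattttattt

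CA12, EGLN3 and EGLN1 fell in SIRT1 KD cells, PDK1 rose, and PFKL and BNIP3L were not called. The 3′ UTRs of CA9, HIF1A, LDHA and VEGFA, which also fell, hold neither word. The part of these words in the falls was not tested.

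Further genes of the pathway were counted in 3 lists, to be read against the shares of all genes given above: 15.7% lower and 12.9% higher in SIRT1 KD, 9.39% and 6.86% in IGF2BP2 KD, and 17.5% and 16.7% in double KD cells. Of 33 other HIF targets tested, 12 fell and 4 rose in SIRT1 KD, 9 fell and 2 rose in IGF2BP2 KD, and 19 fell and 5 rose in double KD cells, with medians of -0.10, -0.12 and -0.41. The counts without double KD replicate 2 were 13 and 6, 12 and 4, and 18 and 5. Counts without that library, in each of the 3 lists, are to be read against the shares of all genes in the same fit. These were 20.9% lower and 18.9% higher in SIRT1 KD, 15.7% and 13% in IGF2BP2 KD, and 20.6% and 19.6% in double KD cells. LOX, a collagen cross-linking enzyme, fell in each knockdown, with log2 changes of -1.22, -1.03 and -2.23 in that order (adjusted p = 1.0e-09, 3.1e-08 and 4.1e-13). IGFBP3, which binds insulin-like growth factors, changed by -0.43, -0.90 and -1.83. GBE1, the glycogen branching enzyme, fell in IGF2BP2 KD (-0.78) and double KD cells (-0.90). HMOX1 (heme oxygenase) rose in SIRT1 KD cells by 1.34.
Of 25 other genes of glycolysis and pyruvate metabolism tested, 7 fell and 5 rose in SIRT1 KD, 5 fell and 1 rose in IGF2BP2 KD, and 8 fell and 7 rose in double KD cells. Without that library they were 9 and 7, 9 and 1, and 10 and 7. ADPGK, a glucokinase that uses ADP, fell by 1.03 in SIRT1 KD and 0.89 in double KD cells, and the pyruvate dehydrogenase kinase PDK3 fell by 0.64 and 1.13. PDP1, the phosphatase that acts against those kinases, rose by 0.66 in SIRT1 KD cells, and LDHB fell there by 0.51. Of 13 genes of the oxygen-sensing machinery tested, 3 fell and 2 rose in SIRT1 KD, 2 rose in IGF2BP2 KD, and 3 fell and 3 rose in double KD cells, counts of so few genes that lie near the shares of all genes. Without that library they were 5 and 4, 0 and 4, and 3 and 4. ARNT2, a partner of HIF alpha subunits, fell by 0.79 and 1.34 in SIRT1 KD and double KD cells, while its relative ARNT rose by 0.36 in SIRT1 KD cells. In double KD cells EPAS1, which encodes HIF-2 alpha, fell by 0.44 and CITED2 fell by 0.54. VHL, which directs HIF alpha to degradation, rose there by 0.64, or by 0.47 without double KD replicate 2.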

How the data were processed

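RNA was sequenced from 12 libraries in 4 groups of 3. Per the submitters' processing notes the build was GRCh38.p13 and the tools were STAR, CASAVA and DESeq2; no source used here gives their versions, the annotation or the strand setting. The deposited table holds the authors' normalised counts, a signal in which each library's reads were divided by 1 factor; 100% of values were whole multiples of the smallest within 0.001 reads, which gave the reads per library. Column codes were matched to groups by letter and number. A second deposited table holds the authors' log2 ratios to control for protein-coding genes, with spelled-out group names; over 10670 genes it matched the codes (SD of the difference at most 1.38e-09 for the same library, at least 0.112 for any other), and it was used for nothing else. The 12 columns of a raw count table without a header were not used. Symbols matched 60463 of 60649 IDs. Genes passed edgeR's filterByExpr at 10 reads (17576 genes). limma 3.58.1 in R 4.3.3 was fitted to log2(normalised count + 1) over all libraries with trend and robust options, with 4 group means, 6 comparisons and Benjamini-Hochberg adjustment over all genes; fold changes are on that scale and understate changes of low genes. edgeR 4.0.16 and DESeq2 1.42.0 on the recovered reads were alternatives. The fit was tested on simulated data. Members and lists were chosen with earlier results of these data known. Values in every library are given for genes with an adjusted p under 0.05 and a log2 change of at least 0.4 against control, and for GAPDH, LDHA and HIF1A; genes of the other lists are named if among the 4 lowest adjusted p in a comparison with control. Replicate numbers did not pair libraries (18 same-number pairs, correlation of deviations -0.213 to 0.136).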

Additional observations from a re-analysis of the deposited data

Results flagged for a closer look

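The effect of the IGF2BP2 hairpin differed with and without the SIRT1 hairpin for 5 genes, each by the interaction term of limma (double KD minus SIRT1 KD, minus IGF2BP2 KD minus control, on the log2 scale). For the aldolase ALDOC it was -0.73 (SE 0.151, adjusted p = 0.0156, range over alternatives 5.0e-04 to 0.0591): IGF2BP2 KD raised it in all 3 libraries and double KD libraries lay level with SIRT1 KD. For the glucose transporter SLC2A1 it was -0.35 (SE 0.0866, adjusted p = 0.0379, range 0.0012 to 0.123), and for NDRG1 -0.48 (SE 0.0913, adjusted p = 0.0105, range 2.4e-05 to 0.0517).

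PDK1 had 1084, 1134 and 1096 normalised counts in control, 1285, 1327 and 1324 in SIRT1 KD, 1245, 1254 and 1253 in IGF2BP2 KD, and 1137, 1025 and 1192 in double KD libraries. Each single knockdown lay above control and double KD overlapped control, and the interaction was -0.41 (SE 0.0948, adjusted p = 0.0259, range 0.0014 to 0.0804). KDM3A had 1312, 1307 and 1412 in control, 1694, 1727 and 1696 in SIRT1 KD, 1625, 1641 and 1679 in IGF2BP2 KD, and 1484, 1379 and 1525 in double KD libraries, with an interaction of -0.52 (SE 0.0895, adjusted p = 0.00602, range 2.8e-06 to 0.0317). Of these 5 genes, KDM3A was past the threshold in all 19 alternatives that give an interaction, NDRG1 in 18, ALDOC in 15, SLC2A1 in 11 and PDK1 in 9.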

How the results depend on the processing

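Of 93 results past the threshold, 60 stayed past it in all alternatives that could be fitted for them, and 0 changed direction. A call given above without a number of settings can be among those lost in some. With only the libraries of the 2 groups compared, 24 genes were called in IGF2BP2 KD against control (11 in the full fit) and 7 in double KD against SIRT1 KD (16 in the full fit). DESeq2 called 9 interactions (5 in limma). Leaving out 1 library at a time gave 16 to 24 genes called for SIRT1 KD, 8 to 23 for IGF2BP2 KD, 10 to 20 for double KD against SIRT1 KD, and 2 to 17 for the interaction; the highest of each came without double KD replicate 2. The 10 came without SIRT1 KD replicate 3. The interaction gave 2 genes without control replicate 2 or 3, SIRT1 KD replicate 1 or 3 or IGF2BP2 KD replicate 3, and 3 without control replicate 1 or IGF2BP2 KD replicate 1 or 2. The cause of these shifts was not tested. With the replicate number as a block the counts were 21, 12, 19, 17, 21 and 5 in the order of SIRT1 KD, IGF2BP2 KD and double KD against control, double KD against SIRT1 KD and IGF2BP2 KD, and the interaction. limma with TMM scaling was added after seeing the data; it moved the median of all genes by at most 0.013 in size (-0.013 for the interaction). Depth limits CA9, EGLN3, ANKRD37 and ANGPTL4 most, the genes with the fewest reads.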
